A study of Mus musculus with 4 samples.

Results

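Igf2r and Airn, Peg10 and Sgce, and Mest and Copg2 are 3 pairs of neighbouring or overlapping genes in imprinted regions of the mouse genome, and the binding of CTCF, the zinc finger protein of insulators and loop anchors, was described across them in the cerebral cortex. The 6 genes were chosen by name, with earlier results of these data known, out of 32093 protein-coding and lncRNA genes of the annotation. Every CTCF summit in a pair or within 50 kb of it was collected, where a summit is the base at which the peak caller placed the top of a peak. The loci held 13 of the 44672 summits of the list supported by both pools of mice. Over all 8 deposited lists they held 272 summits, which formed 73 sites when summits within 150 bp of each other were joined.

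The data were ChIP-seq (chromatin immunoprecipitation followed by sequencing) of CTCF in left cerebral cortex, taken at 2 months from female B6CASTF1/J mice, whose strain name stands for a first cross between C57BL/6J and CAST/EiJ. There were 4 libraries, 2 technical replicates of pool I and 2 of pool J, each pool made from 4 left cortex biosamples. No treatment, genotype or second condition was compared. Both libraries of a pool were merged before peaks were called, so each pool gave 1 value per site, no value per animal exists in these lists, and no test was made between groups. Reads of the parental copies were not separated in these lists, so a peak at an imprinted gene may come from either copy or both. The depth behind a peak is unknown.

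A peak entered a thresholded list when its irreproducible discovery rate (IDR, the estimated share of peaks of that rank or better that fail to repeat) was at most 0.05, which is a score of 540. The highest score is 1000. The list with pools I and J as replicates is called conservative, that from their pooled reads optimal, and pool I and pool J each had a list of its own. Each thresholded list had a ranked counterpart that also kept peaks below the threshold. The signal value of a peak was set by the peak caller and its unit is not stated, so each is given with its percentile, the share of peaks in the same list with a lower value.

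Imprinted genes are transcribed mainly from 1 parental copy, and the choice is carried by DNA methylation laid down in the egg or sperm. At Airn, Peg10 and Mest the start site lies in a region that is methylated on the maternal copy, and the paternal copy is the active one. CTCF is known for binding some imprinting control regions on the unmethylated copy alone, and pairs of CTCF sites whose motifs face each other often anchor chromatin loops. Igf2r, which encodes the receptor that carries insulin-like growth factor II to lysosomes, is transcribed from the maternal copy in most tissues, while neurons are known to use both copies. Airn is the long antisense RNA that starts in an intron of Igf2r and silences it on the paternal copy.

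The arrangement of the genes differed between the pairs. Igf2r (ENSMUSG00000023830, chr17:12682406-12769664, minus strand) and Airn (ENSMUSG00000078247, chr17:12741311-12860136, plus strand) overlap, and Airn starts in intron 2 of Igf2r. Peg10 (ENSMUSG00000092035, chr6:4747306-4760517, plus strand) and Sgce (ENSMUSG00000004631, chr6:4674350-4747207, minus strand) start head to head, with a gap of 98 bp between them. Mest (ENSMUSG00000051855, chr6:30723547-30748465, plus strand) and Copg2 (ENSMUSG00000025607, chr6:30747554-30896794, minus strand) overlap at their ends, so that their start sites lie at opposite sides of the locus. All coordinates are 1-based on mm10.

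Sequences under the start-site peaks are shown for their CpG content. None of the 4 conservative summits there had a CTCF motif match within 50 bp, which 40.4% of all conservative summits within 1000 bp of a transcription start site (TSS) had. The stretches from Peg10-Sgce and Copg2 lie mostly outside the window searched for the motif. Untranslated stretches are left out, all are on the plus strand of GRCm38.p6, which has the coordinates of mm10, and capitals mark CpG. The first is the gap between Sgce and Peg10, chr6:4747208-4747305, with 13 CpG. The peak before the Mest start follows, chr6:30736980-30737268, with 13 CpG in 289 bp, then part of the peak behind it, chr6:30738336-30738444, with 8 in 109 bp. The Copg2 peak was cut to its upstream part, chr6:30896795-30896957, with 19 in 163 bp. The last pair lay at start sites without a conservative peak, around the Airn start at chr17:12741336-12741535 with 12 CpG in 200 bp, and in and beside coding exon 1 of Igf2r at chr17:12769287-12769533 with 38 in 247 bp.
Peg10-Sgce gap: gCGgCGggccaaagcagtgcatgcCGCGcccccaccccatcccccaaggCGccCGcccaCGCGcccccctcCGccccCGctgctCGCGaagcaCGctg
Mest upstream: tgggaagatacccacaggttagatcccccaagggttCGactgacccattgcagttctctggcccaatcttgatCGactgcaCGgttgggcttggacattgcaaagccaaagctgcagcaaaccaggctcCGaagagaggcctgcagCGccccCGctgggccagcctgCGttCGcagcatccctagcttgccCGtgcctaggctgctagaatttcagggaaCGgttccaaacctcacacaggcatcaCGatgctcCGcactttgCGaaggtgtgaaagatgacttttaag
Mest first intron: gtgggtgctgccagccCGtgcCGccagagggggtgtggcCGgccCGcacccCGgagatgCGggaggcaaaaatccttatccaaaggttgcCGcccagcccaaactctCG
Copg2 upstream: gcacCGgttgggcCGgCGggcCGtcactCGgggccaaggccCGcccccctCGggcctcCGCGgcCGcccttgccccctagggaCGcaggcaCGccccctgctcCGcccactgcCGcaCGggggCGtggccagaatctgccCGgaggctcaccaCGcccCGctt
Airn start: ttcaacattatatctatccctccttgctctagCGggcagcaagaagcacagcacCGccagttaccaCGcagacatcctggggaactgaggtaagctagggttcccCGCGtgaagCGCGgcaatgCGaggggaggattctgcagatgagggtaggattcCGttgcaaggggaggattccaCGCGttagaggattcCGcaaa
Igf2r exon 1: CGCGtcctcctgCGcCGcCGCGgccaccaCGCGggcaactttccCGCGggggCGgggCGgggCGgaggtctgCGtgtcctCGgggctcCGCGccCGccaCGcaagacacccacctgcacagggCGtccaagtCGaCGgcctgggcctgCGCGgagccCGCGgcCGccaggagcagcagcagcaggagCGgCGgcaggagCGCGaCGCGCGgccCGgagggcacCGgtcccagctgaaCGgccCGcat

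Away from the members' start sites, 5 of 9 conservative summits of the loci held the motif, against 67.9% of all conservative summits farther than 1000 bp from a TSS. The motif was learned from the strongest peaks, is 20 bp long, was searched on both strands within 50 bp of each summit, and only the best-scoring match was kept. It reads GTGGCCACCAGGGGGCGCTA by its most frequent bases. The 5 matches are given in the direction of the motif, with the score as log2 odds against equal base shares, where 11.6 was the threshold for a match. The match in intron 18 of Igf2r scored 16.9 (summit chr17 12714376, plus strand), and the next, in intron 1 of Airn, scored 17.7 (12797623, plus). The highest score of the 5, 19.6, was in the same intron (12810669, minus). Beyond Airn the score was 14.8 (12880385, plus), and beyond Copg2, on chromosome 6, it was 11.8 (30923022, minus).
motif: GTGGCCACCAGGGGGCGCTA
Igf2r intron 18: TGAGGCACCAGAGGGCACCA
Airn intron 1, left: ATTACCACAAGATGGCAGAA
Airn intron 1, right: TATACCACAAGGGGGCACTA
beyond Airn: TCAACCTCCAGGGGTCGCTC
beyond Copg2: GTCACCATCAGAGGGCGACT

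CTCF lay at the start sites of Peg10, Sgce, Mest and Copg2 and not, in the conservative list, at those of Igf2r and Airn. A member was counted when a summit lay within 1000 bp of any annotated TSS. That held for 4 of the 6 members, 4 of the 5 protein-coding ones and not the lncRNA, against 20.8% of all protein-coding genes and 10.6% of all lncRNA genes. Peg10 and Sgce share 1 peak, so the 4 members stand for 3 separate start regions. With the gene body and 10 kb upstream counted, all 6 had a summit, against 61.3% of protein-coding and 39.4% of lncRNA genes. Peg10 was counted there through the shared peak, which lies upstream of it.

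**Figure D1:**
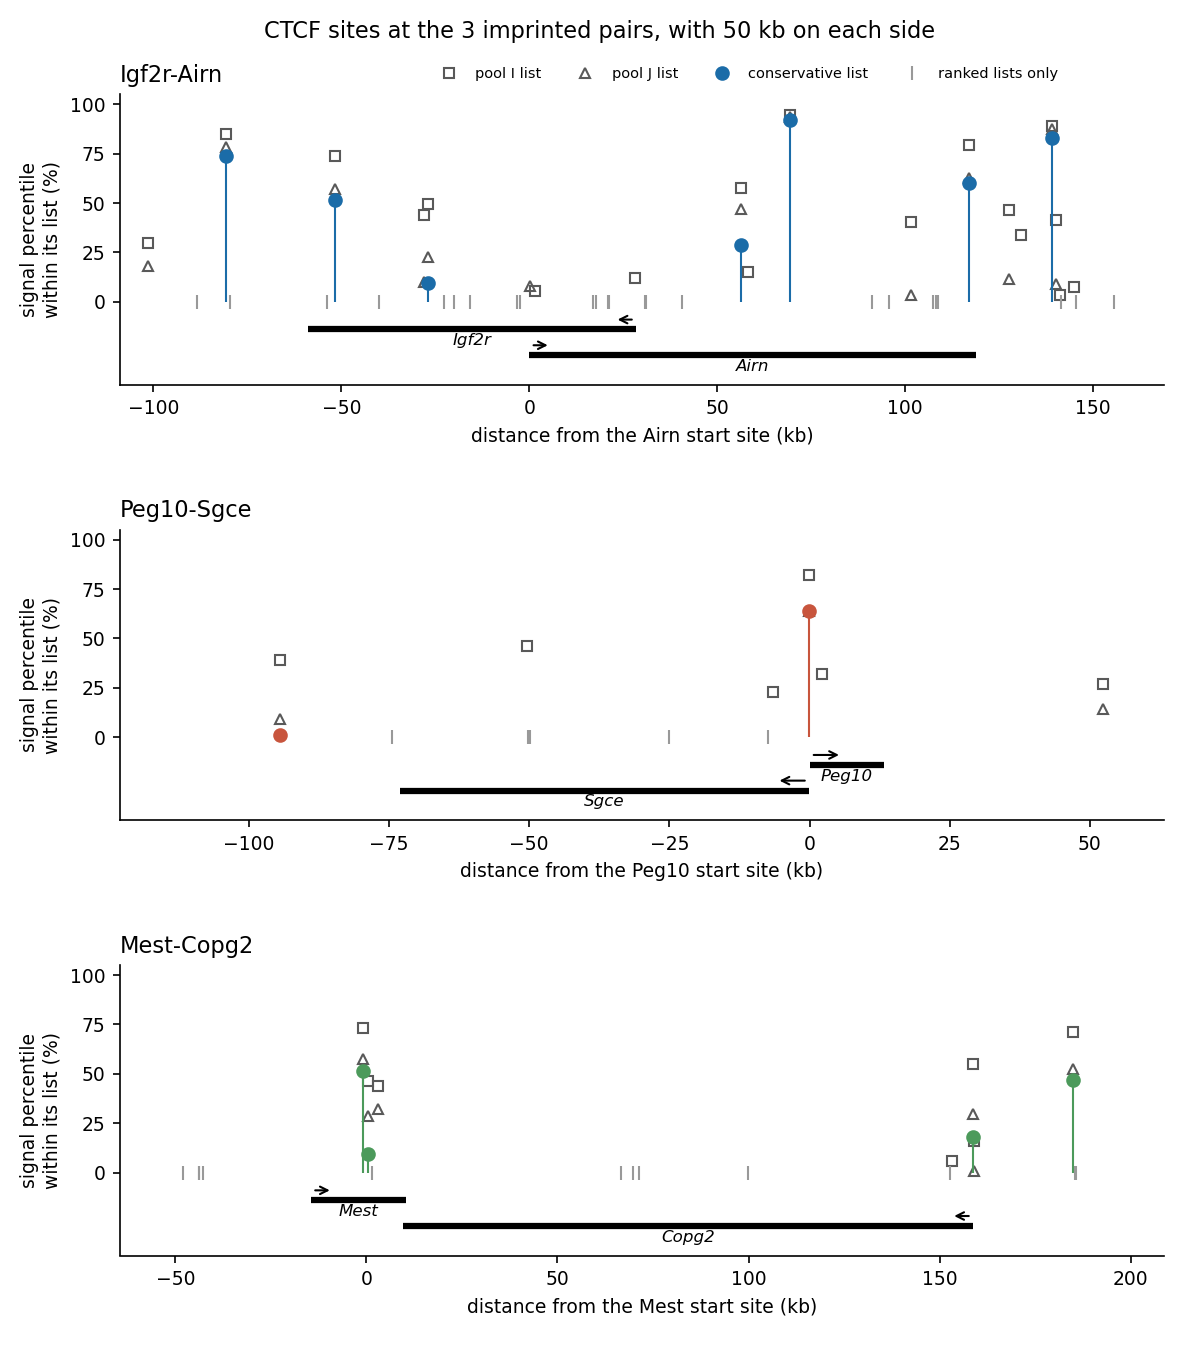
Sites at the 3 pairs, by distance in kb from the Airn, Peg10 and Mest start sites (horizontal axis) and by signal percentile within a list (vertical axis); filled circles are conservative peaks, squares pool I, triangles pool J, and grey ticks at 0 are sites of the ranked lists only, with gene bodies as black bars and arrows in the direction of transcription. The Peg10 and Mest start sites carry circles at the 63.9 and 51.7 percentiles, and the Airn start carries none.

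The Peg10-Sgce peak spanned both start regions. Peg10 encodes a retrotransposon-derived protein needed for the placenta, and Sgce encodes epsilon-sarcoglycan, a membrane protein whose loss causes myoclonus dystonia. The peak covered chr6:4747039-4747372 with its summit at 4747166, in exon 1 of Sgce within the 5′ UTR and 140 bp before the Peg10 TSS. Its signal was 371 in the conservative and optimal lists, 262 in pool I and 106 in pool J, with a score of 1000 in all of these. Those values stood at the 63.9, 68.3, 82.1 and 64.0 percentiles, and the rank was 16133 of 44672 in the conservative list. It was thus an above-median peak in each list. The summit moved by few bases between lists, from 4747154 in pool J to 4747161 in pool I and 4747166 in the conservative and optimal lists. In the ranked list of both pools it stood at the 87.7 percentile.

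Only 1 other conservative summit lay in the Peg10-Sgce locus, and it was among the weakest of the conservative list. It lay between genes at chr6 4652924, 94382 bp before the Peg10 TSS, with a signal of 72.6 at the 1.33 percentile and a score of 587. Pool I gave it 52.6 (39.1 percentile) and pool J 18.6 (9.37 percentile). In the ranked list of both pools, which also keeps peaks below the threshold, it stood at the 62.9 percentile. Inside the genes, pool I alone listed summits in intron 1 of Peg10 (4749481, signal 43.8) and intron 1 of Sgce (4740707, signal 35.1). The Peg10 intron site also stood in the ranked list of both pools, where its score of 466 was below the threshold. A site in intron 5 of Sgce (4696886) was in the optimal and pool I lists, with signals of 82.5 and 64.9.

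Mest, which encodes a membrane enzyme of the alpha/beta hydrolase fold, had conservative summits on both sides of its main start sites. The stronger lay at chr6 30737138 in intron 1 of the longest transcript, 912 bp before the start at 30738050. Its signal was 281 in the conservative list (51.7 percentile, rank 21590), 190 in pool I (73.0 percentile) and 84.6 in pool J (57.7 percentile). The other lay at 30738349, 296 bp after the start at 30738053. It was weaker, with 99.8 (9.35 percentile), 65.6 (46.6 percentile) and 32.5 (28.9 percentile). The upstream start of Mest at 30733506 had no conservative summit within 1000 bp, and with only that start counted Mest was lost from the 4 members.

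A further Mest site fell just under the threshold of the conservative list. It lay in intron 2 at chr6 30741004, 2951 bp after the start at 30738053, and was listed in the optimal list (signal 101, 19.7 percentile), pool I (60.1, 43.7 percentile) and pool J (35.7, 32.3 percentile). Its score in the ranked list of both pools was 502. Mest thus had 3 sites within 3 kb of its main start in the optimal, pool I and pool J lists, and 2 in the conservative list.

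Copg2, which encodes a subunit of the COPI coat of transport vesicles and is known to favour the maternal copy in mouse, had 1 conservative summit at its start. It lay at chr6 30896770, 31 bp before the annotated TSS at 30896739, yet inside the gene, which is annotated up to 30896794. Its signal was 121 in the conservative list (18.1 percentile, rank 36598), 87.6 in pool I (54.9 percentile) and 33.4 in pool J (29.9 percentile). All scores were 1000. A second site, in exon 1 of the lncRNA gene 4930412F09Rik, was listed by pool I at 30896956 (score 805) and by pool J at 30896937 (signal 7.90, 0.902 percentile). It scored 68 in the ranked list of both pools. The pool I summit of this site lay 57 bp from the 4930412F09Rik TSS. The conservative peak at the Copg2 start ended at 30896957, so it also reached exon 1 of this lncRNA gene. Across the body of Copg2, pool I alone had a thresholded site, in intron 3 at 30891399 with a signal of 22.6. The overlap of Mest and Copg2 at their ends held no conservative summit.

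Beyond the Copg2 start, at chr6 30923022 in intron 2 of 4930412F09Rik, lay the only conservative summit of this locus with a motif match. Its signal was 247 (46.6 percentile, rank 23834), with 176 in pool I (71.2 percentile) and 69.3 in pool J (52.3 percentile). It was the second strongest of the 4 conservative summits of the locus, after the one before the Mest start. The next conservative summit lay 351 bp outside the 50 kb border, at 30947145, at the 21.9 percentile and with a motif match.

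At Igf2r and Airn the start sites had weak peaks, each in 1 pool's thresholded list. The Igf2r summit lay at chr17 12769485, 179 bp into the gene in coding exon 1. Pool I listed it with a signal of 27.1 (11.9 percentile) and a score of 811. In the ranked pool J list it had a signal of 10.7 and a score of 146, and in the ranked list of both pools a score of 259. The Airn summit lay at chr17 12741436, 38 bp after a start site of Airn. Pool J listed it with a signal of 17.9 (8.18 percentile) and a score of 639, and it was the only site of the 3 loci thresholded in pool J and not in pool I. The ranked pool I list had it at 19.4 with a score of 405, and the ranked list of both pools scored it 68. A site at 12742739, 1341 bp after the Airn start at 12741398, was thresholded in pool I alone (22.2, 5.29 percentile). The start sites of both genes thus lay below the IDR threshold when both pools were required.

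The strong sites of the Igf2r-Airn locus lay away from the starts. The strongest of all 13 conservative summits was in intron 1 of Airn at chr17 12810669, upstream of Igf2r and 5262 bp before the late Airn start at 12815931. Its signal was 563 in the conservative list (92.2 percentile, rank 3476), 342 in pool I (94.8 percentile) and 224 in pool J (93.7 percentile). The next was intergenic, past the end of Airn at 12880385, with 501 (82.9 percentile, rank 7638), 309 (89.1 percentile) and 196 (87.4 percentile). Both were strong peaks in either pool.

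A further 4 conservative summits of that locus ran from the 9.41 to the 60.1 percentile. The strongest of them, 12858309, lay in intron 1 of Airn and intron 3 of Mas1, the gene of the Mas receptor, with a signal of 343. Within Igf2r, a summit in intron 42 (12689730) had a signal of 282 and one in intron 18 (12714376) a signal of 100. In intron 1 of Airn, 12797623 had 155, at the 28.6 percentile.

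Inside the loci, neighbouring motifs faced each other once. The plus-strand match at 12797623 and the minus-strand match at 12810669, both in intron 1 of Airn, lie 13046 bp apart. The match before them, in Igf2r intron 18, is 83.2 kb away and on the same strand as the left one. In no other case did adjacent conservative summits of a locus both hold a match. The windows of the facing pair follow, chr17:12797523-12797722 and chr17:12810569-12810768, plus strand, with the match in capitals, so that the second shows the reverse complement of the match given above.
Airn intron 1, left window: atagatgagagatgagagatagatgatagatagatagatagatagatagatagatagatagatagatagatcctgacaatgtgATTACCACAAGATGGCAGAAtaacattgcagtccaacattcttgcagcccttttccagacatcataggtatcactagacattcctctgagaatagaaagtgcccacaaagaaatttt
Airn intron 1, right window: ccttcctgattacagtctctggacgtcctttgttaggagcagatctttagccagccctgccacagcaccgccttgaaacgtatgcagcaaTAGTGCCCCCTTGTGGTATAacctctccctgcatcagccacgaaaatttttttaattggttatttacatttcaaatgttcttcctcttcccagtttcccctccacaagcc

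By number of summits, Igf2r-Airn was the densest of the 3 loci. It held 7 conservative summits in 277.731 kb, or 25.2 per Mb, against 18.1 per Mb over the autosomes, and autosomal windows of that length held a median of 4 with quartiles of 1 and 7. Peg10-Sgce held 2 in 186.168 kb (10.7 per Mb, window median 2), and Mest-Copg2 held 4 in 273.248 kb (14.6 per Mb, window median 4). In the optimal list the counts were 11, 4 and 5. Pool I gave 18, 6 and 7, and pool J gave 13, 3 and 6. Igf2r-Airn was above the median window in all 4 lists, while the other loci were at or within 2 summits of it. No test was made of these counts, since the loci were chosen by name and with earlier results of these data known.

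**Figure D2:**
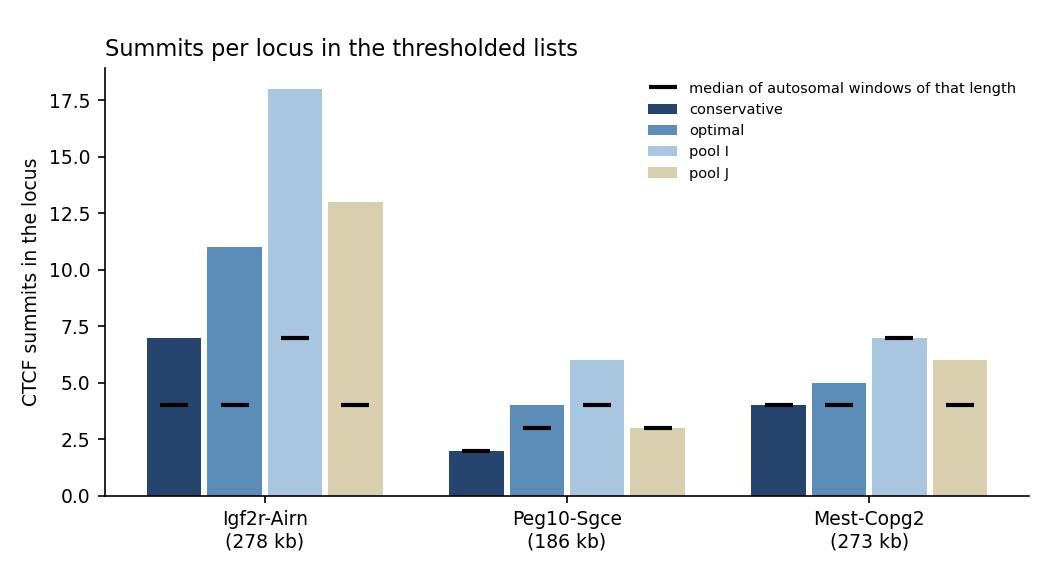
Number of CTCF summits (vertical axis) in each locus, pair with 50 kb on each side, for the 4 thresholded lists (bars), with the median of autosomal windows of the same length as black dashes. The Igf2r-Airn bars of 7, 11, 18 and 13 stand above dashes at 4, 4, 7 and 4.

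Of the 73 sites, 41 were in ranked lists alone and 13 were in all 4 thresholded lists. The ranked list of both pools held 27 summits in Igf2r-Airn, 9 in Peg10-Sgce and 7 in Mest-Copg2. Autosomal windows of those lengths held medians of 11, 7 and 11 in that list. Its density over the autosomes was 54.3 per Mb, against 97.2 at Igf2r-Airn, 48.3 at Peg10-Sgce and 25.6 at Mest-Copg2. Among the 32 sites in any thresholded list, 21 were in both pools' lists, 10 in pool I's alone and 1 in pool J's alone. Of the 13 conservative peaks, 12 had the highest score, as did 93.9% of the whole list, and the exception was the intergenic peak near Sgce.

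The pools shared these sites about as they shared the whole lists. Of 31 pool I peaks in the loci, 21 were overlapped by a pool J peak (67.7%; exact Clopper-Pearson 95% interval 48.6 to 83.3%), against 63.1% of all pool I peaks. Of 22 pool J peaks, 21 were overlapped by a pool I peak (95.5%; interval 77.2 to 99.9%), against 97.5% of all. Intervals cover counting error only. Both background shares lay inside the intervals, which are wide.

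Signal was higher in pool I at all 13 conservative peaks, as it was in the median peak of the whole list. Pool I over pool J, as a log2 ratio, ran from 0.61 to 1.50 with a median of 1.24, against a median of 1.09 (SD 0.39 over 44672 peaks). With unit and depth unknown, the level of this ratio carries no comparison of binding between the pools. Within 1 SD of the median lay 10 of the 13. The lowest ratio, 0.61, was at 12810669 in Airn, at -1.25 SD from the median. The highest, 1.50, was at the weak intergenic peak near Sgce, at 1.06 SD. They were the strongest and the weakest of the 13 peaks by conservative signal, at the 92.2 and 1.33 percentiles. The median and SD were taken over peaks of every strength, and the ratio was not compared among peaks of like strength.

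**Figure D3:**
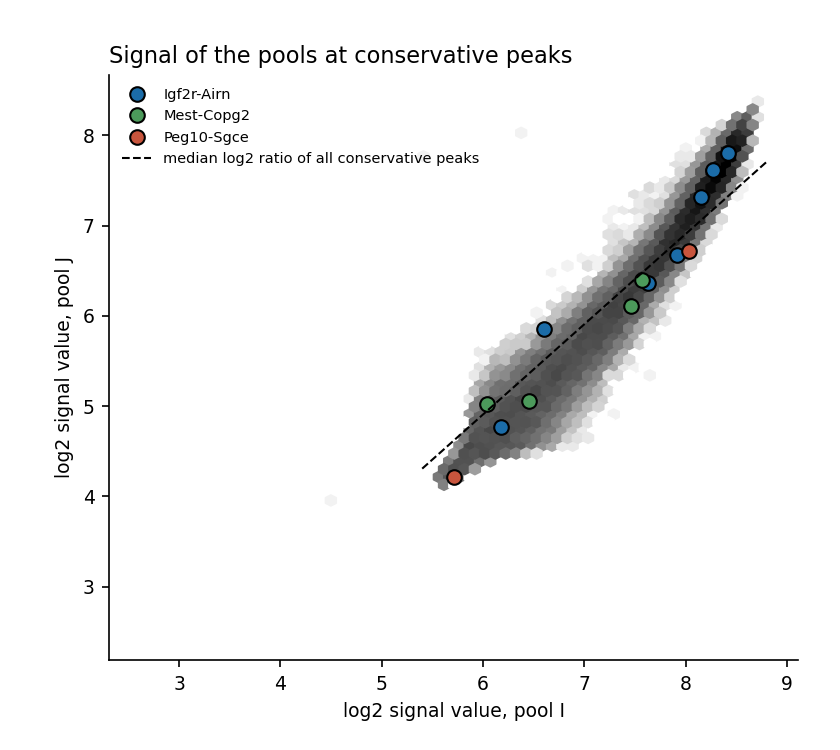
Signal value of each conservative peak in pool I (horizontal axis) and pool J (vertical axis), both as log2; grey shading counts all 44672 conservative peaks on a log scale, coloured circles are the 13 peaks of the loci, and the dashed line marks the median log2 ratio of 1.09. The 13 circles lie inside the grey cloud, with ratios of 0.61 to 1.50.

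At these numbers the intervals of the motif shares in the loci included the background shares. Over the 3 loci 5 of 13 conservative summits had one (38.5%; exact interval 13.9 to 68.4%), against 64.5% of all conservative summits and 0.942% of flanking windows 1000 bp away. At the member start sites, given above with their sequences, 0 of 4 had a match, and the exact interval reaches up to 60.2%, above the background of 40.4%. By locus, 4 of 7 matched at Igf2r-Airn, 0 of 2 at Peg10-Sgce and 1 of 4 at Mest-Copg2. At the 4 summits of the member start sites the best score ranged from -3.93 to 4.64, well short of 11.6.

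The start-site peaks were rich in CpG. The ratio of observed to expected CpG in 300 bp around the summit was 0.725 at Peg10-Sgce. It was 0.581 and 1.01 at the Mest summits and 0.922 at Copg2. Their median of 0.823 compares with 0.624 over all conservative summits within 1000 bp of a TSS (quartiles 0.385 and 0.824). The other 9 summits of the loci had a median of 0.211, from 0.0808 to 0.567, and all summits farther from a TSS had 0.201. The ranges of the start-site peaks and the others did not overlap, by a narrow gap of 0.581 against 0.567. Over all conservative summits the ranges did overlap, 0 to 1.30 within 1000 bp of a TSS and 0 to 1.35 farther away. Away from conservative peaks, the ratio was 0.674 around the weak summit at the Airn start and 0.963 around that at the Igf2r start. Both values lay within the range of the conservative start-site peaks, 0.581 to 1.01. Whether CpG content bears on the presence of a peak was not tested.

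**Figure D4:**
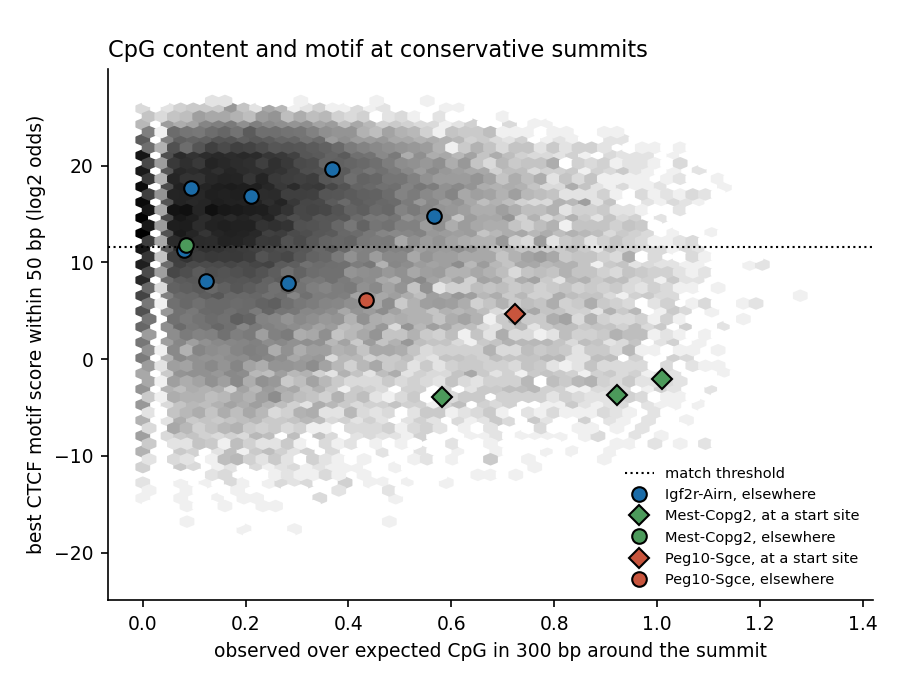
Best motif score within 50 bp of the summit (vertical axis, log2 odds) against the observed over expected CpG ratio in 300 bp (horizontal axis), for all 44672 conservative summits (grey, log scale) and the 13 in the loci (diamonds within 1000 bp of a member's start, circles elsewhere); the dotted line is the match threshold of 11.6. The 4 diamonds lie at CpG ratios of 0.581 to 1.01 and below the line.

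RefSeq promoters (GRCm38.p6, mostly the bases before a start with a few after it) were at hand for Airn, Copg2, Igf2r and Mest. A conservative summit lay inside 1 of them, that of Copg2, which has 25 CpG. The promoters at the main Mest starts held 17 CpG and that of Igf2r 34, while Airn's held 3.

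Genes around the pairs, in lists chosen with earlier results of these data known, are given next. Around Igf2r-Airn 0 of 10 had a promoter summit and 5 had one in the gene or 10 kb upstream, where 20.8% and 61.3% of all protein-coding genes did. Around Mest-Copg2 the counts were 0 and 6 of 10. Around Peg10-Sgce 2 of 11 had a promoter summit, Asb4, a component of ubiquitin ligases (signal 547, 90.1 percentile), and Ppp1r9a, which encodes the actin-binding neurabin (123, 18.8 percentile), and 3 had one in the gene or upstream. The promoter share around Peg10-Sgce, 18.2%, was near that of all protein-coding genes.

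Other genes that start at maternally methylated regions had a promoter summit in 2 of 12, or 16.7%, near the shares of 20.8% of protein-coding and 10.6% of lncRNA genes. A summit near any annotated TSS of the gene was counted, so it need not lie at the methylated region. They were Gnas, the locus of the stimulatory G protein alpha subunit (251, 47.3 percentile), and Peg13, an imprinted lncRNA (231, 44.1 percentile). In the gene or 10 kb upstream 9 of 12 had a summit, against 61.3% of protein-coding and 39.4% of lncRNA genes. Of the members whose start lies at such a region, Peg10 (63.9 percentile) and Mest (51.7 percentile, the stronger of its summits) stood above both. The Mest summit nearer its main start was at the 9.35 percentile, below both. Airn had no conservative promoter summit.

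The genes most like each member in their promoter peak were found by the distance between the percentiles in the 4 thresholded lists, over 4327 protein-coding genes with a promoter summit in all 4. For Peg10 and Sgce these were Fbxl22 (distance 1.58 percentage points) and Gsto2 (1.61). For Mest they were Brk1 (0.887) and Zfp949 (0.913), and for Copg2 Med13l (0.507) and Pcdhga7 (0.796). The likeness concerns the strongest promoter peak of a gene in 4 lists that share reads, and nothing else. Igf2r and Airn had no promoter summit in all 4 lists and were not compared.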

How the data were processed

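CTCF ChIP-seq of left cerebral cortex was analysed from 8 peak lists on mm10, 4 thresholded by IDR and 4 ranked. Per the deposited notes, pool I, pool J, both pools as replicates and their pooled reads each gave 1 list of either kind, with the 2 libraries of a pool merged. The score deposited by the authors is a scaled IDR, minus 125 times its log2 up to 1000, which was checked on the 133567 ranked peaks of both pools and held within 1 unit for 100%. A −log10 of the IDR stands beside it in the authors' ranked lists. Signal values in the deposited lists come from the peak caller. Which input of the joint list was which pool was read from identical intervals (84.5% for pool I, 61.8% for pool J, 0% crosswise). No aligner, peak caller or control is named in the sources used here, and sequencing depth is unknown.

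The tools were samtools 1.23.1 and Python 3.11.15 with pysam 0.24.0, SciPy 1.17.1, pandas 2.3.3, matplotlib 3.10.9 and numpy 2.4.6, with GRCm38.p6 and the GENCODE M21 basic annotation. Summits were compared with every TSS of a gene (1000 bp). The 20 bp motif was built on the 1000 conservative peaks of highest signal on the odd-numbered autosomes, none of them in the loci, and tested on simulated data. A match passes the score that 1% of windows 1000 bp from summits reach. The members and gene lists were chosen with earlier results of these data known. The 6 members were always named, as were up to 4 members of each gene list with the strongest promoter summit, the 2 genes most like each member, every conservative summit near a member's TSS and the 3 strongest per locus, except for 1 site that is not reported here. Further sites were chosen after their values were seen. There was 1 condition and 1 value per pool, so no test was made. The alternatives were other flanks (20 and 100 kb), promoter windows (500 and 5000 bp), lists, an IDR of 0.01, motif settings and overlaps. The comprehensive annotation was added after seeing the data. CTCF binding is no measure of expression, so the tissue was not checked against marker genes.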

Additional observations from a re-analysis of the deposited data

How the results depend on the processing

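The number of summits depended on the list and on the flank. At Igf2r-Airn 7 became 11 in the optimal list, 18 in pool I, 13 in pool J and 5 with a flank of 20 kb. At Peg10-Sgce 2 became 4 in the optimal list, 6 in pool I and 3 in pool J. It became 1 with a flank of 20 kb or an IDR of at most 0.01, which each removed the weak intergenic peak near Sgce. At Mest-Copg2 4 became 5 in the optimal list, 7 in pool I and 6 in pool J, 3 with a flank of 20 kb and 6 with 100 kb. Promoter summits stayed at 3 to 5 of the 6 members: 3 with the first TSS alone (without Mest), 5 in pool I (with Igf2r) and 5 in pool J (with Airn), and 4 with every other setting, among them the comprehensive annotation added after seeing the data. With no upstream part, 5 of 6 members had a summit in the gene, since Peg10 was lost. The motif share of 38.5% fell to 0% at a threshold that 0.1% of flanking windows pass, where all conservative summits had 12.4%. With an overlap of at least 50% of a peak, 72.7% of pool J peaks in the loci were shared with pool I, against 88.7% over the whole list, and 51.6% of pool I peaks with pool J, against 57.1%, so that the latter share went from above to below that of its whole list. The density at Peg10-Sgce was below that of the autosomes in the conservative list and above it in the optimal list (21.5 against 20.6 per Mb), and that at Mest-Copg2 was above it in pool J (22.0 against 21.4 per Mb). No paired analysis was possible because both libraries of a pool were merged before peaks were called and the design has 1 condition. Depth, unit of signal and parental copy are unknown in these lists, and 2 pools give no spread between animals.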

Other observations

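Motif scores above that of every conservative summit of these loci were found at a pair of sites outside the conservative list. A site at chr17 12639782, between genes and 101529 bp before the Airn start, scored 23.7, above the stricter threshold of 20.5. Pool I (signal 41.6) and pool J (24.2) each gave it an IDR score of 1000, yet its score in the ranked list of both pools was 68. Close to the strong summit past the end of Airn, a site at 12881370 had a motif score of 21.7, an IDR score of 1000 in pool I, 770 in pool J and 445 in the joint list. Another site, beyond Peg10 at chr6 4799575, had a joint score of 68, with 1000 in pool I, 865 in pool J and a motif score of 19.6. The sites at 12639782 and 4799575 also stood in the optimal list, with scores of 648 and 645. In the order given, 48%, 75% and 48.7% of the 300 bp around these sites are masked as repeats. The median over all conservative summits was 12.3%.

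Conversely, the pool J summit at chr6 30896937, near the Copg2 TSS, had a score of 1000 at the 0.902 percentile of signal. These sites were chosen after their values were seen.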
